A study of Mus musculus with 6 samples.

Results

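The interferon-response gene families are the genes of the deposited mouse liver table whose symbols name a STAT signal transducer of the interferon pathway, an interferon regulatory factor (Irf) or an interferon-induced protein of the Ifit, Ifitm, Ifi, Isg, Oas, Gbp, Irgm, Iigp1, Mx, Rsad2 or Usp18 series. They were picked by name alone, and rows typed as pseudogenes were left out. This gave 73 of the 28880 genes in the table. They fall into 10 oligoadenylate synthetase (OAS) genes, 11 guanylate-binding protein (GBP) genes, 5 immunity-related GTPase (IRG) genes, 10 IFI200 genes, 9 IRF genes, 7 IFITM genes, 6 IFIT genes, 3 genes each of the ISG and IFI27 groups, 2 MX genes, the STAT genes, and 5 single genes (Ifi30, Ifi35, Ifi44, Rsad2 and Usp18).

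The 6 libraries hold liver RNA of 3 acute ethanol-exposed and 3 control mice, all male, wild type, of the strain C57BL/6J and 6 to 8 weeks old. The ethanol-exposed mice went without food for 12 h, then received 6 g/kg of 50% ethanol once by mouth, and their livers were collected 24 h afterwards. Control mice received no ethanol, and neither a fast nor a sham gavage is stated for them, so ethanol, the fast and the gavage cannot be told apart. All 6 libraries carry the same batch label, and each comes from whole liver of a different mouse.

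Type I interferons are secreted by cells that sense foreign nucleic acid. All interferons act on neighbouring cells through receptors coupled to Janus kinases. Type I interferons lead to a complex of STAT proteins and IRF9 that binds the interferon-stimulated response element (ISRE), whereas interferon gamma leads to STAT dimers that bind a separate gamma-activated site (GAS). The genes so induced restrict viruses and intracellular microbes, and in liver they are expressed both by hepatocytes and by resident immune and endothelial cells.

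Between 60514417 and 74210869 reads per library were counted on genes. TMM factors, which correct library sizes for differences in composition, were 0.768 to 0.836 in ethanol-exposed and 1.26 to 1.27 in control mice. Levels are therefore given as CPM, in which the TMM factor enters the library size, and changes are relative to that scaling. All 10 hepatocyte markers examined (such as Alb, Ttr and Hnf4a) were expressed, and their summed level was 148700 to 154114 CPM in ethanol-exposed and 84571 to 96681 CPM in control mice. In the deposited FPKM values, the means in ethanol-exposed and control mice were 29681 and 26747 for Alb, 3975 and 4480 for Ttr, and 100 and 99.0 for Hnf4a. The marker sums given here were not computed without the TMM factors. The 10 Kupffer cell markers summed to 114 to 155 CPM against 136 to 149 CPM, and the 8 stellate cell markers to 213 to 258 CPM against 162 to 181 CPM. The 8 sinusoidal endothelial markers summed to 107 to 190 CPM against 121 to 137 CPM, with Lyve1 and Cdh5 upregulated and Kdr and Oit3 downregulated. Sums of monocyte and macrophage (39.9 to 52.4 against 49.9 to 63.0 CPM), B cell (2.99 to 4.88 against 4.85 to 6.82 CPM) and cholangiocyte markers (57.6 to 75.0 against 31.7 to 73.1 CPM) overlapped. Of the monocyte and macrophage markers, Cd68 was upregulated, and Ccr2 (at 0 in all ethanol-exposed mice) and Fcgr1 were downregulated. Sox9 was upregulated among the cholangiocyte markers and Ms4a1 downregulated among the B cell markers. The 11 T and NK cell markers summed to 0.556 to 1.14 CPM against 2.91 to 3.59 CPM. Of the 6 tested, Cd4 alone was downregulated (16.7%, against 13.8% of all genes tested), and Cd3e was above all control mice in ethanol replicate 3. Cd8a and Ncr1 were too sparse to be tested. They were at 0 in all ethanol-exposed mice and had 14, 8 and 6 (Cd8a) and 6, 0 and 12 (Ncr1) counts in control mice. The 8 neutrophil markers summed to 3.18, 3.91 and 15.1 CPM in ethanol replicates 1, 2 and 3 and to 1.15 to 1.84 CPM in control mice. Of these markers, Cxcr2, Retnlg, S100a8 and S100a9 were upregulated, and Mpo was at 0 in all libraries but control replicate 2. In bulk liver, fewer cells of a type and less RNA per cell cannot be told apart, and the part of these cells in the values below was not tested.

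The mouse with ethanol replicate 3 stood apart from the other ethanol-exposed mice. Of the 68 members tested, 19 (27.9%) were over 1.5 times the level of both other ethanol replicates there, against 14.5% of all genes tested, and 9 members (13.2%) were below both others by that factor, against 13.9% of all genes. The summed level of the members was 832, 760 and 1240 CPM in ethanol replicates 1, 2 and 3, and 1128, 1067 and 1066 CPM in control replicates 1, 2 and 3. The median coefficient of variation of a member was 33.8% among ethanol-exposed and 13.7% among control mice, against 23.7% and 11.6% for all genes. Where a named member's call changed without this mouse, both values are given.

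Because these genes are known for a shared promoter element, the sequences before their starts were examined first. RefSeq promoter windows (mouse build GRCm38.p6, 250 bases before to 50 bases after each annotated start) were found by symbol for 54 of the 73 members. An ISRE-type match, on either strand GAAA and again GAAA with NN (any 2 bases) between them, was present in 30 of the 54 members (55.6%) and in 1079 of 27025 genes with a window (3.99%). In 25 members a match began within 150 bases upstream of the start. A GAS-type match, TTCNNNGAA, which reads the same on both strands, was present in 12 of 54 members (22.2%) and in 9.55% of all genes with a window. Isg15 encodes a ubiquitin-like modifier and Ifit1 an RNA-binding antiviral protein. The 250 bases before their starts are shown because they hold several ISRE-type matches, which are in capitals. Those of Isg15 lie at chr4:156200819-156201068 on the minus strand and those of Ifit1 at chr19:34640639-34640888 on the plus strand, each written in the direction of the gene.
Isg15: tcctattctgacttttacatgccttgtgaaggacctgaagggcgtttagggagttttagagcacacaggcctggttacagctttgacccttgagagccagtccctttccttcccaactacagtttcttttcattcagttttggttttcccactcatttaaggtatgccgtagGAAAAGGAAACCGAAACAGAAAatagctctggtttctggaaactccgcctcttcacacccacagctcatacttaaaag
Ifit1: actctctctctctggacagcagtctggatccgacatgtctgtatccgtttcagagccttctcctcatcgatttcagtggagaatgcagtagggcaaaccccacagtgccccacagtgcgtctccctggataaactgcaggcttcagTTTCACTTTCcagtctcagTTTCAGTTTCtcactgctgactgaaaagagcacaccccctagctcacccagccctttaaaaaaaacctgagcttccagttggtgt
The Isg15 run consists of 3 overlapping matches, whereas the matches of Ifit1 are 2 separate ones on the opposite strand.

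Shorter stretches of 30 bases, a match in capitals with 10 bases on either side, are shown for members that were called and for members that were not, and the difference between such members was not tested. Oas1a and Oas1g carried the same stretch, at chr5:120907526-120907555 and chr5:120887612-120887641 (minus strand), and both were downregulated. Ifit3 and Ifit3b also shared a stretch, at chr19:34583397-34583426 and chr19:34607793-34607822 (plus strand), and neither was called. Ifi213 and Ifi208 shared another, at chr1:173599326-173599355 (minus strand) and chr1:173673597-173673626 (plus strand), of which Ifi213 was called and Ifi208 was not. Gbp7 at chr3:142530273-142530302 (plus strand) was downregulated, Ifitm2 at chr7:140955988-140956017 (minus strand) was upregulated, and Rsad2 at chr12:26456553-26456582 (minus strand) was not called.
Oas1a and Oas1g: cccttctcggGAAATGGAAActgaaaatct
Ifit3 and Ifit3b: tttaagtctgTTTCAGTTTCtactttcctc
Ifi213 and Ifi208: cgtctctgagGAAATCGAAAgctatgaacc
Gbp7: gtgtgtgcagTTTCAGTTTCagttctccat
Ifitm2: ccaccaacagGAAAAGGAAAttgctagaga
Rsad2: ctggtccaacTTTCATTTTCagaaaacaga
Among members with a window, the element was found in 10 of 16 downregulated members (62.5%), in 1 of 4 upregulated members (25%) and in 17 of 29 tested members that were neither (58.6%). By family it was found in 5 of 5 GBP, 8 of 9 IFI200, 5 of 6 IFIT, 4 of 8 OAS, 2 of 7 IFITM and 1 of 8 IRF genes. A match is a description of letters in a window, and the deposited data contain no measurement of factor binding.

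**Figure D1:**
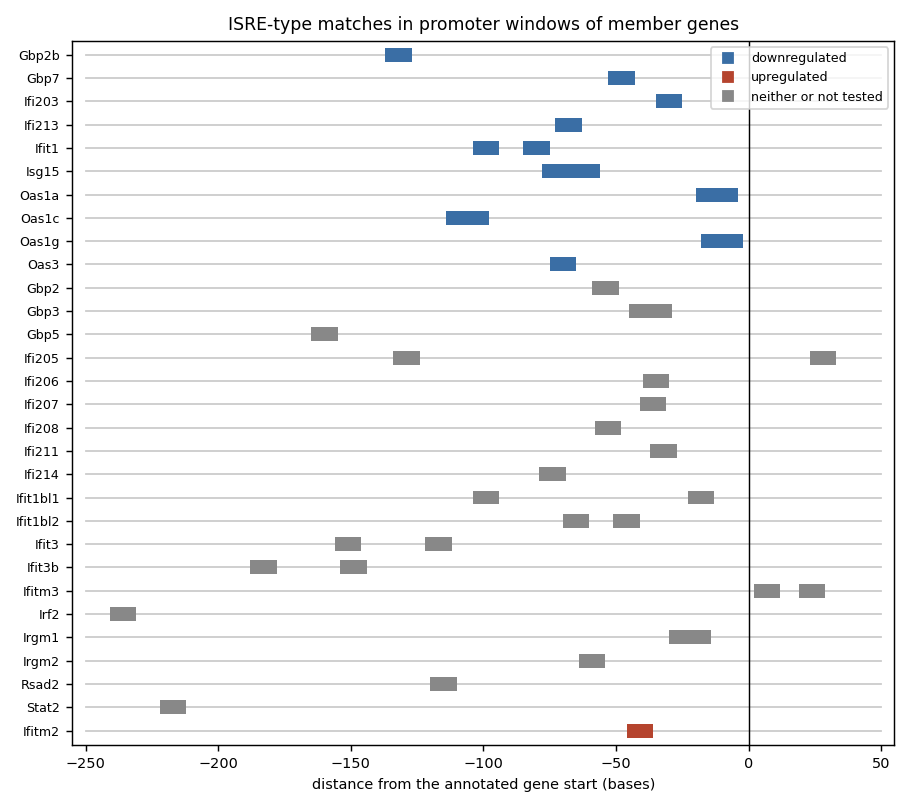
Position of ISRE-type matches (bars) in the promoter windows of the 30 members that have one, in bases from the annotated gene start (x axis), with members on the y axis and bars coloured by the member's response to ethanol. Bars lie mostly within 150 bases before the start in downregulated members and in members that were neither up- nor downregulated.

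In acute ethanol-exposed livers, 28 of the tested interferon-response genes were lower, above all in the OAS and GBP families, 8 were higher and 32 did not pass the test. Of the 68 members with enough reads to be tested, 25 were downregulated (36.8%; background 13.8% of the 16717 genes tested) and 5 were upregulated (background 10.4%), by edgeR's quasi-likelihood test (log2 fold change past 1 in size, Benjamini-Hochberg adjusted p below 0.05). The 28 lower and 8 higher genes are those called with no threshold on the fold change (background 21.5% in each direction). All 3 ethanol-exposed mice lay below all 3 control mice for 35 members (51.5%; background 31.0%) and above them for 10 (background 28.0%). The median log2 fold change of the tested members was -0.95, against -0.04 for all genes, and 50 members (73.5%; background 51.7%) had a value below 0. The 5 members not tested (Ifi214, Ifit1bl2, Ifitm7, Oas1f and Oas1h) had 0 to 6 counts in any library. With the library size alone as scaling, the median of all genes moved to -0.71 and that of the members to -1.62, a shift common to all genes. The members' median minus that of all genes was -0.91 in both, -0.54 when a mean FPKM of 1 was required, and -0.26 and -0.54 with limma on log2(FPKM + 1) and log2(FPKM + 0.1). With each library left out in turn, 14 of the downregulated and 3 of the upregulated members (Ifitm1, Ifitm5 and Mx2) were called every time.

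**Figure D2:**
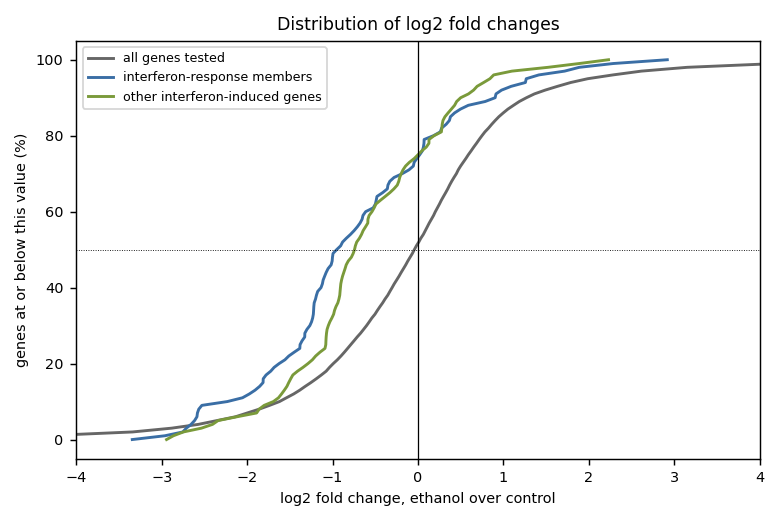
Share of genes (y axis, percent) at or below each log2 fold change of ethanol-exposed over control mice (x axis) for all 16717 genes tested, the 68 tested members and 59 other interferon-induced genes. The curve of the members crosses 50% at -0.95 and that of all genes at -0.04.

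**Figure D3:**
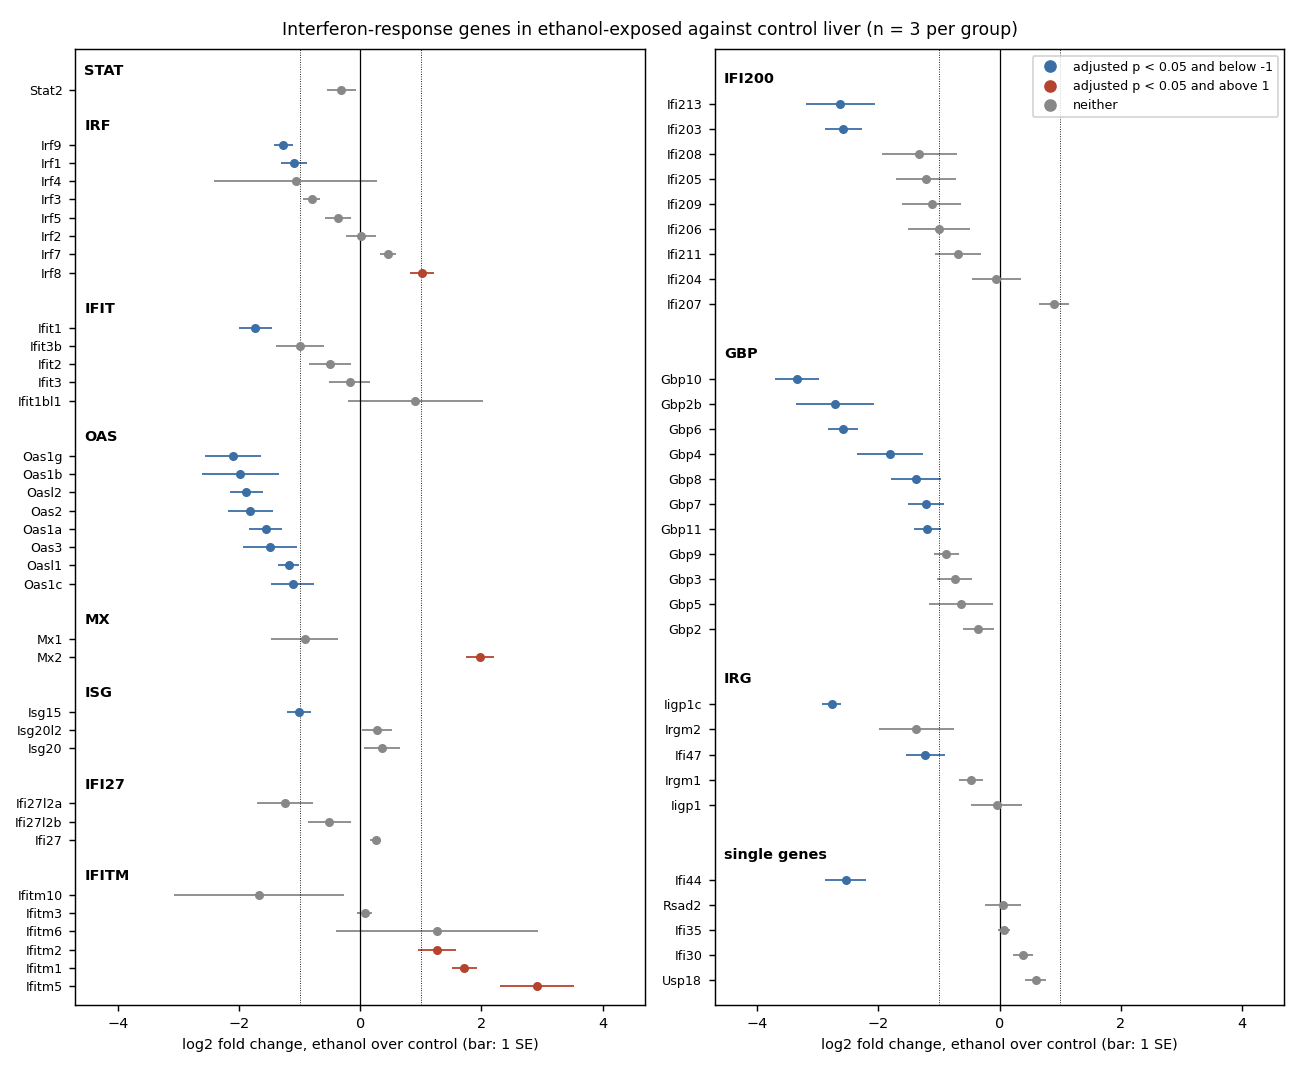
Log2 fold change of ethanol-exposed over control mice (x axis, points) with 1 standard error (bars) for 66 tested members, grouped by family, with dotted lines at the fold change threshold. All 8 tested OAS genes lie below -1, all 11 GBP genes lie below 0, and the 3 upregulated IFITM genes, Mx2 and Irf8 lie above 1.

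The transcription factors that carry the interferon signal did not move together. Irf9, the DNA-binding partner of the STATs, was at 10.1, 9.25 and 13.2 CPM in ethanol-exposed and at 25.9, 25 and 27.4 CPM in control mice. The groups were well apart, and it was downregulated 2.41-fold (log2 fold change -1.27 with a standard error, SE, of 0.15, adjusted p = 0.00102, edgeR). Stat2, which joins Irf9 in that complex, was at 34.7, 32.9 and 61.3 CPM in ethanol-exposed and at 54.9, 52.3 and 52.9 CPM in control mice. Its ethanol replicate 3 lay above every control mouse while the other two lay below, and Stat2 was not called (log2 fold change -0.31, adjusted p = 0.318, edgeR). Without ethanol replicate 3 the value was -0.65 (adjusted p = 0.000356, edgeR), still under the fold change threshold.

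Irf1, an activator shared by both interferon types, was at 8.24, 8.55 and 13.8 CPM in ethanol-exposed and at 23.4, 21.0 and 20.6 CPM in control mice. The groups were apart, and Irf1 was downregulated 2.13-fold (log2 fold change -1.09, adjusted p = 0.00643, edgeR). It passed -1 narrowly, with -0.96 and -0.98 without ethanol replicates 1 and 2. Irf3, which switches on interferon genes once sensors are engaged, was at 19.6, 24.9 and 27.4 CPM against 44.1, 40.5 and 40.6 CPM in control mice. It was lower without reaching the fold change threshold (log2 fold change -0.80, adjusted p = 0.00418, edgeR). Irf7, its partner in that step and itself an interferon-induced gene, was at 27.0, 31.2 and 29.6 CPM against 19.0, 24.7 and 20.3 CPM. It was thus higher in every ethanol-exposed mouse (log2 fold change 0.46, adjusted p = 0.0281, edgeR), with -0.21 when the library size alone was used as scaling and adjusted p of 0.083 to 0.111 without ethanol replicate 2, control replicate 1 or control replicate 3. Irf8, a factor of myeloid and dendritic cells, was at 7.18, 5.38 and 6.18 CPM against 2.68, 3.32 and 3.27 CPM. It was upregulated 2.02-fold (log2 fold change 1.01, adjusted p = 0.006, edgeR), a value that was 0.90 without ethanol replicate 1, 0.92 without control replicate 1 and 0.34 with library size alone. Of the other plasmacytoid dendritic cell markers in the list that holds Irf8, 5 were tested and none was called by edgeR, with log2 fold changes from -0.50 (Siglech) to 0.63 (Ly6d). Of the other members of the family, Irf2, Irf4 and Irf5 were not called, with log2 fold changes from -1.06 to 0.01. Without ethanol replicate 3, Irf2 was lower (-0.34, adjusted p = 0.0249, edgeR). Irf4 had ethanol reads in replicate 1 alone, and without that mouse it was lower (adjusted p = 0.0249, edgeR), with no fold given.

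Upstream of these factors, 1 kinase was lower and several other genes were higher. Among 9 genes of the list, Tyk2 alone was downregulated (11.1%, near the background of 13.8%) and none was upregulated (background 10.4%). Tyk2, the kinase bound to the IFNAR1 chain of the type I receptor, was at 7.46, 7.75 and 6.16 CPM in ethanol-exposed and at 21.1, 18.7 and 19.8 CPM in control mice. It was 2.79-fold lower (log2 fold change -1.48, SE 0.14, adjusted p = 0.000374, edgeR). Jak1, the kinase shared by all interferon receptors, was at 107, 106 and 109 CPM against 70.3, 68.1 and 67.3 CPM. It was higher under TMM (log2 fold change 0.65, adjusted p = 0.00148, edgeR) and at -0.02 with the library size alone. Jak2, the partner kinase of the interferon gamma receptor, was at 24.4, 26.8 and 11.5 CPM against 12.1, 9.87 and 9.99 CPM. Ethanol replicate 3 fell within the control range, and the difference was 0.98 on the log2 scale (adjusted p = 0.0352, edgeR), or 1.28 and past the fold change threshold without that mouse (adjusted p = 0.000108, edgeR). Without any other single library, the adjusted p of Jak2 was 0.0773 to 0.114. The receptor chains Ifnar2 and Ifngr1 were higher by 0.39 (adjusted p = 0.021, edgeR) and 0.73 (adjusted p = 0.00353, edgeR), with -0.28 for Ifnar2 under library size alone and adjusted p of 0.0643 to 0.0943 without ethanol replicate 1, control replicate 2 or control replicate 3. In the deposited FPKM values, Ifngr1 had means of 4.78 in ethanol-exposed and 4.56 in control mice. Ifnar1 (log2 fold change -0.28), Ifngr2 (0.02), Il10rb (0.13) and Ifnlr1 (-0.47) were not called. Of the interferon genes themselves, Ifng alone was in the table, with 4 counts in control replicate 1 and 0 in every other library, and the others were not analysed here.

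**Figure D4:**
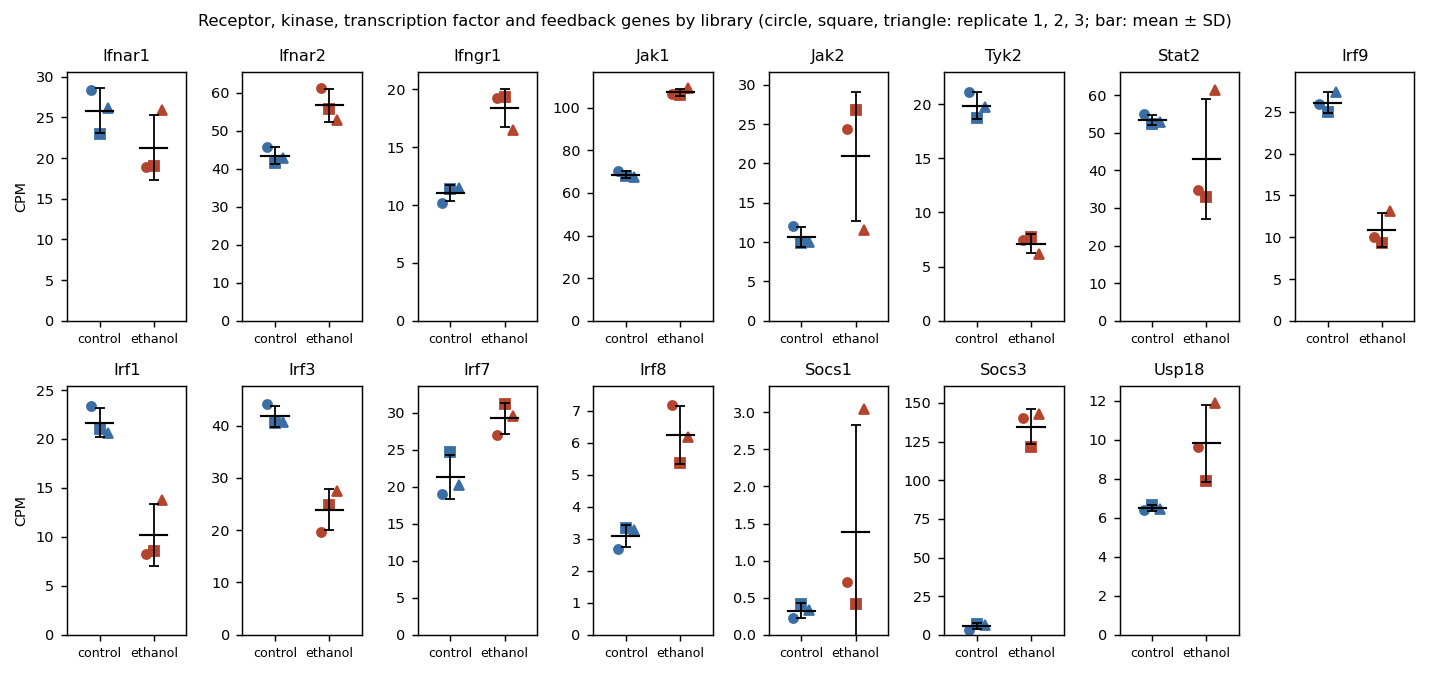
CPM (y axis, linear from 0) of receptor, kinase, transcription factor and feedback genes in each control and ethanol-exposed mouse, with the marker shape giving the replicate number and the bars the group mean and SD (n = 3). Irf9 and Tyk2 do not overlap between the groups, whereas ethanol replicate 3 leaves the other two for Stat2 and Jak2.

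The OAS family bind double-stranded RNA and make short oligoadenylates that activate RNase L, an enzyme that degrades RNA. All 8 of its tested members were downregulated (background 13.8%), with a median log2 fold change of -1.69, and in all 8 the groups were apart (background 31.0%). Apart from Oasl1 they were sparse, with mean FPKM from 0.138 (Oas3) to 1.52 (Oas1a) in control mice. In ethanol-exposed mice their means were from 0.0291 (Oas3) to 0.319 (Oas1a) FPKM. Of these calls, that of Oasl1 alone held in every alternative processing. Oasl1, an OAS-like protein without synthetase activity and the most abundant by FPKM (7.04 in control mice), was at 7.75, 7.33 and 5.53 CPM in ethanol-exposed and 15.6, 16.8 and 14.4 CPM in control mice. It was 2.27-fold lower (log2 fold change -1.18, SE 0.17, adjusted p = 0.00173, edgeR). Oasl2, its paralog that keeps the activity, was at 0.799, 0.785 and 0.953 CPM against 3.14, 2.40 and 3.79 CPM. It was 3.68-fold lower (log2 fold change -1.88, SE 0.27, adjusted p = 0.00197, edgeR). Oas1a was at 0.886, 0.916 and 0.660 CPM against 2.08, 2.77 and 2.44 CPM, which was 2.95-fold lower (log2 fold change -1.56, adjusted p = 0.00397, edgeR).

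Oas2, with a duplicated synthetase unit, was at 0.904, 0.736 and 1.61 CPM in ethanol-exposed and 2.95, 3.62 and 4.83 CPM in control mice (log2 fold change -1.81, adjusted p = 0.00716, edgeR). Oas1g was at 0.191, 0.343 and 0.147 CPM against 0.852, 1.23 and 0.862 CPM (log2 fold change -2.10, adjusted p = 0.0102, edgeR). The groups were apart in each case, and ethanol replicate 3 was the highest ethanol-exposed mouse for Oas2 and the lowest for Oas1g. Oas1b, Oas1c and Oas3 were lower by log2 fold changes of -1.98 (adjusted p = 0.0401, edgeR), -1.11 (0.0386) and -1.49 (0.0311). These 3 calls and that of Oas1g were lost when certain libraries were left out. Without 1 library, the Oas1c call was lost in every case but ethanol replicate 3 (adjusted p = 0.0587 to 0.143), as was that of Oas3 (0.0734 to 0.0989). The Oas1b call was lost without ethanol replicate 2 or any control replicate (0.0848 to 0.112), and the Oas1g call without control replicate 2 (0.0508). No read was counted on Oas1f, and 5 on Oas1h in control replicate 3 alone.

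The GBP family are large GTPases that assemble on the vacuoles of intracellular microbes and are strongly induced by interferon gamma. All 11 members had a log2 fold change below 0 (background 51.7%), 7 were downregulated (background 13.8%) and the median was -1.22. Gbp10 (ENSMUSG00000105096, chr5:105363565-105387399 in the deposited table) had the lowest value of all members. It was at 1.06, 1.44 and 0.513 CPM in ethanol-exposed and 10.9, 9.38 and 10.5 CPM in control mice, 10.2-fold lower (log2 fold change -3.34, SE 0.36, adjusted p = 0.000626, edgeR). Gbp6 was at 2.10, 2.78 and 1.47 CPM against 12.8, 11.5 and 14 CPM, 6.01-fold lower (log2 fold change -2.59, SE 0.25, adjusted p = 0.000437, edgeR). Both genes were low in every ethanol-exposed mouse and lowest in ethanol replicate 3. They share 73.5% (Gbp10) and 64.5% (Gbp6) of their 100-base stretches with other genes, above all Gm43302, which had 124, 0 and 21 counts in ethanol-exposed and 696, 584 and 641 counts in control mice. Reads could thus have been split among the 3 genes, which was not tested. The 6 neighbouring GBP members on chromosome 5, a sum without Gm43302, were at 8.91, 9.66 and 8.67 CPM against 38.0, 32.6 and 41.5 CPM (log2 fold change -2.04, adjusted p = 9.89e-05, edgeR).

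On chromosome 3, the 5 neighbouring GBP genes summed to 9.33, 5.87 and 7.60 CPM in ethanol-exposed and 16.7, 12.2 and 16.6 CPM in control mice (log2 fold change -0.997, adjusted p = 0.00883, edgeR). Gbp2b (also named Gbp1) was at 0.382, 0.278 and 0.0733 CPM against 2.62, 1.09 and 1.14 CPM (log2 fold change -2.71, adjusted p = 0.0134, edgeR). Its control replicate 1 stood well above the other control mice, and without that mouse the value was -2.18 (adjusted p = 0.0588, edgeR). Gbp7 was at 4.07, 1.91 and 3.24 CPM against 7.59, 5.89 and 8.01 CPM (log2 fold change -1.22, adjusted p = 0.0147, edgeR). It was at -0.97 without ethanol replicate 2, and its adjusted p was 0.0534 and 0.0591 without control replicates 1 and 3. Gbp2, often taken as a marker of interferon gamma, overlapped between the groups at 1.74, 1.93 and 1.72 CPM against 2.5, 1.76 and 2.61 CPM (log2 fold change -0.35, adjusted p = 0.291, edgeR). Of the remaining chromosome 5 genes, Gbp11 was lower by -1.19 (adjusted p = 0.00498, edgeR) and its call held without any library. Gbp4 and Gbp8 were lower by -1.81 (adjusted p = 0.0327, edgeR) and -1.38 (0.0311), and overlap each other on the same strand. Both calls were lost without ethanol replicate 2 or any control replicate, with adjusted p of 0.0559 to 0.102 for Gbp4 and 0.0608 to 0.115 for Gbp8. Gbp9 was lower under the fold change threshold (log2 fold change -0.88, adjusted p = 0.0131, edgeR; 0.0631 without control replicate 3), and Gbp3 and Gbp5 were not called (-0.74 and -0.64).

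The IRG family are smaller GTPases that disrupt the vacuoles of microbes (Iigp1, Iigp1c and Ifi47) or restrain the family on the cell's own membranes (Irgm1 and Irgm2). Their responses split, and ethanol replicate 3 was the highest of the ethanol-exposed mice for all 5. Iigp1c had 9.87, 11.6 and 13.9 CPM in ethanol-exposed and 84.3, 83.7 and 74.3 CPM in control mice. It was 6.84-fold lower (log2 fold change -2.77, SE 0.15, adjusted p = 7.45e-05, edgeR), the smallest adjusted p of any member. Iigp1 had 126, 83.2 and 298 CPM against 187, 161 and 174 CPM. Replicates 1 and 2 lay below and replicate 3 above all control mice, and the log2 fold change was -0.04 (adjusted p = 0.942, edgeR) with all mice and -0.72 (adjusted p = 0.00881, edgeR) without replicate 3. Irgm2 had 3.81, 5.22 and 22.4 CPM against 30.4, 25.7 and 25.7 CPM. It was lower in every ethanol-exposed mouse but not called (log2 fold change -1.38, adjusted p = 0.11, edgeR), whereas without replicate 3 it was called at -2.58 (adjusted p = 2.16e-05, edgeR). Irgm1 had 25.3, 23.2 and 38.6 CPM against 38.5, 43.7 and 39.1 CPM, with -0.48 (adjusted p = 0.0885, edgeR) in all mice and -0.73 (adjusted p = 0.000682, edgeR) without replicate 3. Ifi47 had 6.07, 3.91 and 10.3 CPM against 16.6, 16.2 and 14.5 CPM and was downregulated 2.34-fold (log2 fold change -1.23, adjusted p = 0.0202, edgeR). Its call held only while ethanol replicate 3 alone was left out (-1.65) or no library was. It was -0.95 without ethanol replicate 2, and the adjusted p was 0.0535 to 0.0674 without ethanol replicate 1 or any control replicate.

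Among classical markers of type I interferon, some were lower, some were at the control level and Usp18 was higher. Ifit1, which binds RNA with an unmethylated cap, was at 2.16, 1.41 and 1.14 CPM in ethanol-exposed and 5.27, 4.86 and 5.44 CPM in control mice. It was downregulated 3.31-fold (log2 fold change -1.73, SE 0.28, adjusted p = 0.00285, edgeR). Ifit3, which stabilizes Ifit1, was at 8.45, 6.95 and 3.28 CPM against 8.39, 6.29 and 6.35 CPM, and the groups overlapped (log2 fold change -0.17, adjusted p = 0.708, edgeR). It shares 31.7% of its 100-base stretches with Ifit3b, and over the 6 IFIT genes summed the log2 fold change was -0.66 (adjusted p = 0.114, edgeR). Ifit2, Ifit3b and the sparsely counted Ifit1bl1 were not called (-0.49, -0.99 and 0.91), and Ifit3b was called without ethanol replicate 1 (-1.36, adjusted p = 0.0477, edgeR). Isg15 was at 2.76, 2.53 and 2.57 CPM against 4.34, 5.85 and 5.62 CPM. The groups were apart and the change lay just past the fold change threshold (log2 fold change -1.01, adjusted p = 0.0065, edgeR), with -0.99, -0.98, -0.93 and -0.96 without ethanol replicate 2, ethanol replicate 3, control replicate 2 and control replicate 3. Usp18, the protease that removes Isg15 and also blocks the type I receptor, was at 9.65, 7.90 and 11.9 CPM against 6.39, 6.65 and 6.44 CPM. It was higher in every ethanol-exposed mouse (log2 fold change 0.59, adjusted p = 0.0327, edgeR) and at -0.08 with the library size alone. Its adjusted p was 0.0702 to 0.105 without ethanol replicate 1 or any control replicate.

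Rsad2 encodes viperin, which makes a nucleotide that ends viral RNA chains. It was at 7.65, 6.85 and 3.50 CPM in ethanol-exposed and 5.41, 5.42 and 6.51 CPM in control mice, with ethanol replicates 1 and 2 above and replicate 3 below all control mice (log2 fold change 0.05, adjusted p = 0.894, edgeR). Its direction changed with the scaling, at -0.04 with upper quartile factors and -0.61 with the library size alone. Ifi44 was at 0.348, 0.229 and 0.238 CPM against 1.59, 1.51 and 1.68 CPM, 5.83-fold lower (log2 fold change -2.54, SE 0.33, adjusted p = 0.00136, edgeR). Ifi27, a mitochondrial protein and one of the more abundant members (39.5 FPKM in control mice), was at 58.1, 57.7 and 60.0 CPM against 46.4, 51.5 and 49.6 CPM. The groups were apart by a small margin, and it was not called (log2 fold change 0.25, adjusted p = 0.0623, edgeR; -0.41 with the library size alone). Isg20, Isg20l2, Ifi27l2a, Ifi27l2b, Ifi30 and Ifi35 were not called either, with log2 fold changes from -1.24 to 0.38.

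The IFI200 genes, most of which bind DNA in the nucleus or cytosol, form a cluster on chromosome 1. Ifi203 was at 1.79, 0.801 and 1.25 CPM in ethanol-exposed and 7.59, 7.93 and 7.42 CPM in control mice, 5.97-fold lower (log2 fold change -2.58, SE 0.30, adjusted p = 0.000895, edgeR). Ifi213 was at 0.243, 0.0654 and 0.312 CPM against 1.26, 1.6 and 0.984 CPM, 6.19-fold lower (log2 fold change -2.63, SE 0.57, adjusted p = 0.00951, edgeR). These 2 were the downregulated members of 9 tested (22.2%; background 13.8%), and none was upregulated (background 10.4%). Ifi207, at 4.74, 4.58 and 7.55 CPM against 2.74, 3.02 and 3.29 CPM, was higher under the threshold (log2 fold change 0.90, adjusted p = 0.0236, edgeR). It was 1.00 and 1.02, and called, without ethanol replicates 1 and 2, and 0.64 without replicate 3. Its adjusted p was 0.0636 to 0.0851 without any one control replicate. The other 6 tested genes were not called and ranged from -1.32 to -0.06, and the 10 genes summed gave -0.67 (adjusted p = 0.0438, edgeR). Among these, Ifi209 was called without ethanol replicate 3 (-1.69, adjusted p = 0.013, edgeR) and Ifi208 without ethanol replicate 1 (-2.06, adjusted p = 0.0422, edgeR).

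The IFITM proteins sit in membranes and block the fusion of enveloped viruses, and 3 of their 6 tested genes were upregulated (background 10.4%). Ifitm1 was at 8.53, 6.34 and 6.56 CPM in ethanol-exposed and 1.98, 2.51 and 2.02 CPM in control mice. All ethanol-exposed mice were above all control mice, by 3.30-fold (log2 fold change 1.72, SE 0.21, adjusted p = 0.00102, edgeR). Ifitm2 was at 111, 100 and 228 CPM against 69.9, 54.2 and 57.9 CPM, with the highest level in ethanol replicate 3 (log2 fold change 1.27, SE 0.32, adjusted p = 0.0161, edgeR). Its call was lost without that mouse (0.81, adjusted p = 0.000806, edgeR), without control replicates 2 and 3 (adjusted p = 0.0669 and 0.0651) and with the library size alone (0.59, adjusted p = 0.128). Ifitm5, known from bone-forming cells, was at 0.730, 0.474 and 0.660 CPM against 0.139, 0.0394 and 0.0607 CPM (log2 fold change 2.92, SE 0.61, adjusted p = 0.00834, edgeR). Ifitm2 and Ifitm5 overlap Gm45717 on the same strand, and that gene had 2190, 2440 and 445 counts in ethanol-exposed and 109, 1636 and 1784 counts in control mice. Ifitm2 shares 34.9% of its 100-base stretches with other genes, above all Gm45717 (30.4%), and Ifitm5 shares 19.7% with Gm45717. In each group, Gm45717 was lowest in the mouse where Ifitm2 was highest, ethanol replicate 3 and control replicate 1. Reads could thus have been split among these genes, which was not tested. Ifitm3, the most abundant member (265 FPKM in control mice), was at 153, 143 and 184 CPM against 154, 154 and 150 CPM (log2 fold change 0.07, adjusted p = 0.653, edgeR), and below 0 with the library size alone (-0.60) or upper quartile factors (-0.03). Ifitm6 and Ifitm10 were not called, and had no read in ethanol replicates 1 and 2. Without ethanol replicate 3, which leaves no ethanol read, both were lower (adjusted p = 0.0204 for Ifitm6 and 0.0137 for Ifitm10, edgeR). The size of the fold cannot be measured for them in that case.

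The Mx proteins are dynamin-like GTPases that trap viral components, and C57BL/6 mice are known to carry defective alleles of these genes. Mx2 was at 24.8, 21.2 and 14 CPM in ethanol-exposed and 4.78, 4.72 and 5.78 CPM in control mice. It was upregulated 3.93-fold (log2 fold change 1.97, SE 0.23, adjusted p = 0.00086, edgeR), with the lowest ethanol-exposed mouse still well above the highest control mouse. Mx1, its neighbour on chromosome 16, was at 1.2, 0.360 and 0.348 CPM against 0.874, 1.30 and 1.42 CPM. The groups overlapped through ethanol replicate 1, and Mx1 was not called (log2 fold change -0.91, adjusted p = 0.22, edgeR). Without that mouse it was called at -1.75 (adjusted p = 0.0244, edgeR).

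**Figure D5:**
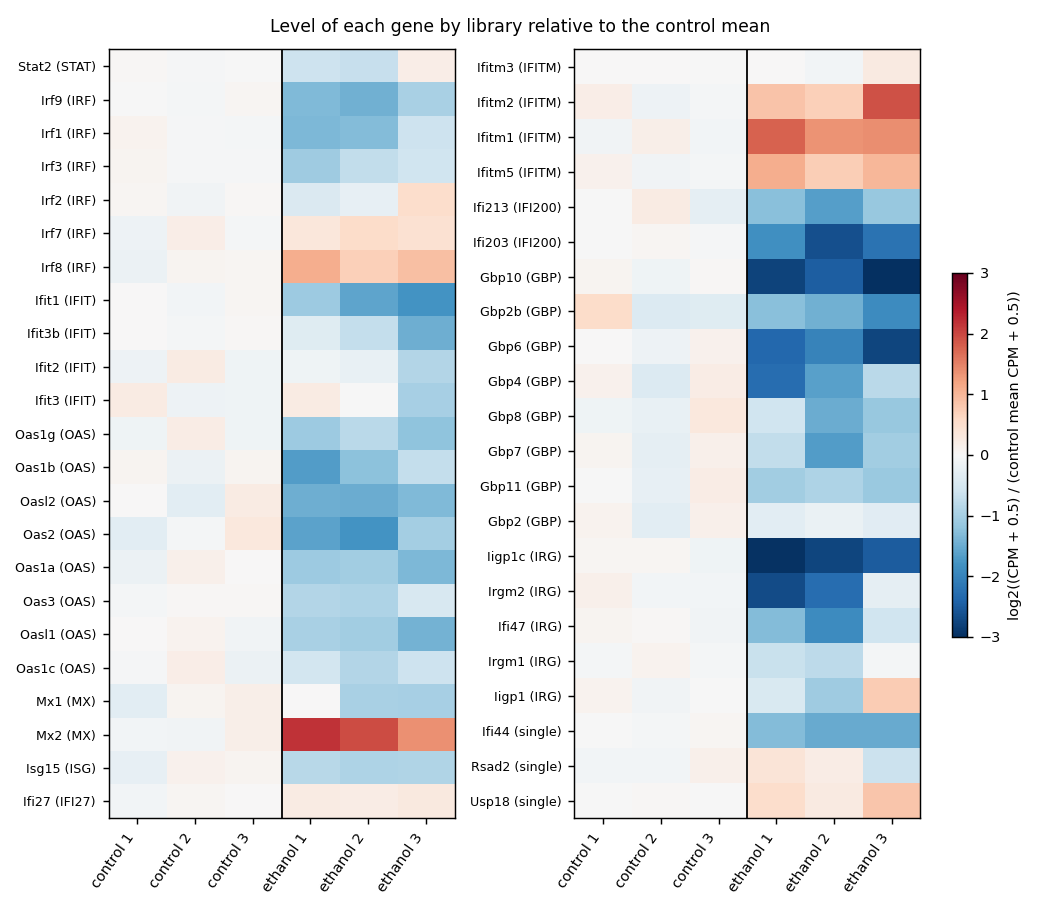
Level of 45 members in each mouse relative to the control mean, as log2((CPM + 0.5) / (control mean CPM + 0.5)), with colours from -3 (blue) to 3 (red), genes in rows and mice in columns. Control mice are near 0 throughout, and ethanol replicate 3 differs from replicates 1 and 2 for Stat2, Irf2, Irgm2, Iigp1 and Ifitm2.

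Genes of the same pathway outside the named families were examined from fixed lists. Of 99 such genes in the table, 96 were tested, 27 were downregulated (28.1%; background 13.8%) and 10 upregulated (background 10.4%), with a median log2 fold change of -0.56. The upregulated share was thus that of all genes. Of 12 negative regulators, 5 were upregulated (background 10.4%) and 2 downregulated (16.7%, near the background of 13.8%). Socs3 was at 140, 122 and 143 CPM in ethanol-exposed and 3.39, 6.84 and 6.46 CPM in control mice, 24.3-fold higher (log2 fold change 4.60, SE 0.29, adjusted p = 9.88e-05, edgeR). Socs2 and Cish were 29.3-fold and 10.4-fold higher (log2 fold changes 4.87 and 3.37, adjusted p = 0.000198 and 0.00134, edgeR). These 3 inhibitors are known chiefly as feedback genes of STAT3 (Socs3) and STAT5 (Socs2 and Cish), downstream of interleukin and growth hormone receptors. Ptpn1 and Ptpn2, phosphatases of Janus kinases and STATs, were higher by 1.02 (adjusted p = 0.000562, edgeR) and 1.91 (0.00136), with 0.35 for Ptpn1 under library size alone. Ptpn6, a phosphatase of blood cells, and Pias3, an inhibitor of STAT3, were lower by -1.22 (adjusted p = 0.000719, edgeR) and -2.30 (0.00113). Socs1, the main inhibitor of interferon receptors, was at 0.713, 0.409 and 3.04 CPM against 0.224, 0.420 and 0.328 CPM and was not called (log2 fold change 2.10, adjusted p = 0.0637, edgeR), with 0.80 without ethanol replicate 3 (adjusted p = 0.26, edgeR).

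Among 16 tested sensors of nucleic acid and their adaptors, 5 were downregulated (31.2%; background 13.8%) and 3 upregulated (background 10.4%), with a median of -0.91. The cytosolic RNA sensors Rigi and Ifih1 were lower. Rigi was at 10.5, 10.5 and 8.48 CPM in ethanol-exposed and 28.0, 22.8 and 23.2 CPM in control mice (log2 fold change -1.33, adjusted p = 0.000664, edgeR). Ifih1 was lower by -1.05 (adjusted p = 0.00473, edgeR; -0.86 without ethanol replicate 3). Of the adaptors and kinases between sensors and Irf3, Traf3 was lower by -1.65 (adjusted p = 0.000263, edgeR) and Ikbke by -1.15 (0.000727), whereas Ticam1 was higher by 1.09 (0.00062) and Tbk1 by 1.02 (0.00118). Tlr3, lower by -1.31 (adjusted p = 0.0172, edgeR), lost its call without any one control replicate (0.0517 to 0.0609). Aim2, a DNA sensor higher by 1.24 (adjusted p = 0.0409, edgeR), lost its call without any one library except ethanol replicate 3 (0.0532 to 0.137). The calls of Ticam1, Tbk1 and Aim2 were also lost with the library size alone (0.43, 0.34 and 0.57).

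Among 59 other interferon-induced genes, 19 were downregulated (32.2%; background 13.8%) and 2 upregulated (background 10.4%), with a median of -0.74. Rnf213, a large ubiquitin ligase, was at 22.0, 24.7 and 20.7 CPM in ethanol-exposed and 66.1, 64.0 and 61.1 CPM in control mice, 2.83-fold lower (log2 fold change -1.5, adjusted p = 0.000169, edgeR). Igtp, an immunity-related GTPase whose symbol falls outside the name rule, was at 5.81, 5.46 and 5.90 CPM against 19.8, 16.8 and 17.6 CPM (log2 fold change -1.66, adjusted p = 0.000202, edgeR). Unlike Irgm2 and Iigp1, Igtp had no high value in ethanol replicate 3. Samd9l (log2 fold change -2.33, adjusted p = 0.000233, edgeR), Apol9a (-1.54, 0.000527), Parp12 (-1.46, 0.000551) and Pml (-1.08, 0.000493) were also lower. The upregulated genes were Plac8 (log2 fold change 1.64, adjusted p = 0.00103, edgeR) and Trafd1 (2.23, 0.0121), a negative regulator of innate signalling that was at 162, 277 and 53.9 CPM against 35.6, 37.4 and 32.2 CPM. The Trafd1 call was lost without control replicate 1 (adjusted p = 0.0516, edgeR) or 3 (0.054).

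The counts of several members can hold reads of near-identical or overlapping genes. Of the 73 members, 13 lie over a second gene of the same strand, 26 over one of any strand, and 14 share over 10% of their 100-base stretches with another gene. Oas1a shares 40.9% with Oas1g, and the 6 OAS1 genes summed were 1.77, 1.96 and 2.03 CPM in ethanol-exposed and 5.51, 6.55 and 5.81 CPM in control mice (log2 fold change -1.63, adjusted p = 0.000793, edgeR). Irf9 overlaps Rnf31 on the same strand, which had 685, 640 and 833 counts in ethanol-exposed and 1077, 870 and 954 counts in control mice. Iigp1c overlaps Gm5970 on the same strand, which moved the other way, with 640, 455 and 579 counts against 187, 140 and 235 counts. Gbp7 and Ifi47 also overlap another gene on the same strand, and those genes had at most 21 counts in any library.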

How the data were processed

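The authors extracted liver RNA with TRIzol and sequenced it in paired-end reads, and removed adaptor, low-quality and ambiguous reads. The submitters' processing notes name the builds GRCm38 and mm10, and the aligner, the counter and strand use are not given in the sources used here. The deposited table holds raw counts and FPKM values per Ensembl gene. Of 27049 of its genes also in a GRCm38 annotation, 13% overlap their position there, so the build of its coordinates is unknown and they are given as deposited. One column of counts (1 in all) matched no library and was not used.

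Counts were tested with edgeR 4.0.16 in R 4.3.3 (filterByExpr, TMM, quasi-likelihood test, no covariates, Benjamini-Hochberg adjustment over 16717 genes), and a DEG had a log2 fold change past 1 in size with an adjusted p below 0.05. The common biological coefficient of variation was 0.299. Alternatives used DESeq2 1.42.0, limma 3.58.1 on log2(FPKM + 1) and log2(FPKM + 0.1), other scalings and filters, a length trend, a replicate block, each library left out, and neighbouring paralogs summed. The tests were also run on simulated data, and the outcome of that run is not reported here. Shared 100-base stretches were counted in GENCODE M21 transcripts. Each library is 1 mouse. The members, lists and tests were chosen with earlier results of these data known. Genes named are all member DEGs, a fixed set of 23 well-known members, all receptors and kinases, and up to 6 DEGs by adjusted p of each other list. Some members are not reported by name here. Others (such as Ptpn2, Tlr3, Aim2, Plac8, Trafd1, Socs1, Ifi207, Ifi208 and Ifi209) were chosen after their values were seen.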

Additional observations from a re-analysis of the deposited data

How the results depend on the processing

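DESeq2 called 5 members up and 27 down, and edgeR with RLE factors 5 and 25. Of all 16717 genes tested, DESeq2 called 1884 up and 15.3% down, and edgeR with RLE factors 1745 and 13.8%. The 5 upregulated members became 3 with the library size alone, 3 with a mean FPKM of at least 1, 3 with limma on log2(FPKM + 0.1), 0 with limma on log2(FPKM + 1), and 8 by adjusted p alone, and 4 to 6 with a library left out. The 25 downregulated members became 43 with the library size alone (where 32.2% of all genes tested were downregulated, against 13.8%), 12 with a mean FPKM of at least 1 (34 members tested, with all 11 downregulated and 3 upregulated members among them still called), 15 with limma on log2(FPKM + 1), 37 with limma on log2(FPKM + 0.1) (29.7% of all genes) and 13 with neighbouring paralogs summed, which leaves fewer genes, and 16 (without ethanol replicate 2) to 28 (without ethanol replicate 3) with a library left out. Of all genes, 12.1% were downregulated with a mean FPKM of at least 1 and 10.2% with limma on log2(FPKM + 1). With a library left out, the share was 9.88% to 16.5%, with 13.0% without ethanol replicate 2 and 16.5% without ethanol replicate 3. No such share was computed for the summed paralogs. The members' median of -0.95 was -1.62 with the library size alone, -1.05 with upper quartile factors, -0.52 with a mean FPKM of at least 1, -0.53 and -1.12 with limma on log2(FPKM + 1) and log2(FPKM + 0.1), -0.83 with the length trend removed, and -0.97 to -0.84 with a library left out. Of the other pathway genes, the 10 upregulated became 5 with the library size alone, 6 with upper quartile factors, 6 with a mean FPKM of at least 1, 3 and 4 with limma, 19 by adjusted p alone (21.5% of all genes), and 7 to 10 with a library left out. Upper quartile factors gave 1506 upregulated among all 16717 genes, and the all-gene counts of the other settings are those given above. The 27 downregulated became 47 with the library size alone, 49 with limma on log2(FPKM + 0.1) (the same all-gene shares of 32.2% and 29.7%), 43 by adjusted p alone (21.5% of all genes), and 22 to 30 with a library left out (9.88% to 16.5% of all genes). The causes were not tested. Ifitm6, not called at 1.26, reached at most 1.91 with a library left out. Its lowest fitted value was -6.83, without ethanol replicate 3, which held its only ethanol reads. With no ethanol read left, that value is set by the fit and does not measure a fold change. No call of a member changed sign.

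Replicate numbers did not pair the mice (correlations of same-numbered mice -0.042, -0.027 and -0.0075). With the replicate block, the members' median was -1.05, and 22 of 25 downregulated and 5 of 5 upregulated members were still called.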
